A study of Mus musculus with 6 samples.

Results

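Autophagy encloses part of the cytoplasm in a double membrane, the autophagosome, and delivers it to the lysosome. The transcripts of 38 genes of this pathway, out of 54532 genes in the deposited table, were compared between wild type (WT) macrophages and macrophages lacking progranulin (PGRN KO), all challenged with the yeast Candida albicans. The genes were chosen by name, as the core machinery and the cargo receptors of autophagy, by a rule that uses no measured value, although earlier results of these data were known when they were chosen. They comprised 5 genes of the initiation kinase complex, 6 of the class III PI3-kinase complexes, 6 of lipid supply to the early membrane, 10 of the conjugation systems and their proteases, 5 ATG8 proteins and 6 cargo receptors and tethers.

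Per the labels, macrophages from the peritoneal cavity of C57BL/6J mice were plated at 2000000 per well and exposed for 6 hours to the fungus at 1 fungal cell per macrophage. RNA sequencing gave 3 WT libraries (replicates 1, 2 and 3) and 3 PGRN KO libraries (replicates 4, 5 and 6), all from challenged cells, although the titles of the WT samples carry the word control. No unchallenged cells were analysed here, so the values compare genotypes under challenge and give no response to the fungus. The study's text instead calls these cells bone marrow-derived and gives another ratio of fungus to macrophages. The labels were followed. PGRN KO mice lack Grn in every cell type, and the study obtained them and the WT mice from different suppliers, so genotype and source of the mice cannot be told apart. Nothing states that the replicates came from separate animals or cultures, and p-values then measure only the spread between these libraries, which may be technical.

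Autophagy starts when the ULK kinase complex switches on the lipid kinase VPS34, which marks the nascent membrane with PI3P. ATG9 vesicles and the lipid transfer proteins ATG2A and ATG2B feed the growing membrane, and PI3P-binding WIPI proteins bring in the machinery that couples small ubiquitin-like ATG8 proteins (the LC3 and GABARAP families) to lipid. Cargo receptors such as p62 bind ubiquitin-tagged cargo on one side and ATG8 proteins on the other. In macrophages, the conjugation machinery also couples LC3 to phagosomes that hold microbes, fungi among them, a process called LC3-associated phagocytosis. Progranulin itself is a secreted glycoprotein that also resides in lysosomes.

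Transcription of many autophagy genes is driven by TFEB, TFE3 and MITF, which bind the letters CACGTG. The 250 bases before a RefSeq transcript start on GRCm38.p6 are shown for Atg2a and Map1lc3b, which were lower in PGRN KO, and for the conjugation enzymes Atg3 and Atg7, which carry this motif. All 4 stretches are read from the plus strand, 5′ to 3′, and capitals mark CACGTG. The RefSeq start is at the start of the deposited gene model for Atg2a and 77 and 44 bases inside it for Map1lc3b and Atg3, whereas for Atg7 it is an internal start 27999 bases inside the model.
Atg2a, chr19:6241418-6241667: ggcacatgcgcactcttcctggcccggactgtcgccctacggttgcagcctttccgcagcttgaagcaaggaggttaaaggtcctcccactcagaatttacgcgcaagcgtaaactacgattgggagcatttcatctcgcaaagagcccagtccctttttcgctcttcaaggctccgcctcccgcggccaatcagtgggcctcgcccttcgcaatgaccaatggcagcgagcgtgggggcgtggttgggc
Map1lc3b, chr8:121590188-121590437: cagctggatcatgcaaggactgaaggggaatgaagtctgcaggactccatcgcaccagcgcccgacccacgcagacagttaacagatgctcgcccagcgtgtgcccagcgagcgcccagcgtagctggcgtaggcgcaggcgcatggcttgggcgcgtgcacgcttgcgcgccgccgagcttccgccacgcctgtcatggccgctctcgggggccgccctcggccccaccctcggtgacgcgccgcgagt
Atg3, chr16:45158579-45158828: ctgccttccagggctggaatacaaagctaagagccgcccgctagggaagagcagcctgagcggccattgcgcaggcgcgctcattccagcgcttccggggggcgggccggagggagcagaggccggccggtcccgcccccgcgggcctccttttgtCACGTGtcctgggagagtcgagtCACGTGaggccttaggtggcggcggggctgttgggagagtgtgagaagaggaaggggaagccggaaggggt
Atg7, chr6:114670846-114671095: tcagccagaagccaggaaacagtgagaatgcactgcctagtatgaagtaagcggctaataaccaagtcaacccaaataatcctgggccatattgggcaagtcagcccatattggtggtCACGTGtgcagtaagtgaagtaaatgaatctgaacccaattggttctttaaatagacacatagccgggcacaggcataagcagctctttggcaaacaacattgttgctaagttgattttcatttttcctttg

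The motif begins at bases -94 and -71 in Atg3 and at base -132 in Atg7, where -1 is the last base before the start. Windows of the bases before a RefSeq start were available for 32 of the 38 genes, with 39 windows in all, since some genes have several. The letters were searched in the bases before the start, and no result is given for the bases past it. CACGTG was in 4 of the 39 windows (10.3%), 1 each of Atg3, Atg5, Atg7 and Rubcn, against 6.02% of 32851 promoter windows, and a second window of Rubcn did not hold it. Since CACGTG is its own reverse complement, this search covers both strands. None of these 4 genes was called with all libraries, and of the 5 genes that were lower and had a window (Atg2a, Atg2b, Atg14, Wipi2 and Map1lc3b) 0 held it. The forkhead letters GTAAACA, searched on both strands, were in 0 of the 39 windows and in 3.17% of all promoter windows. TGACNNNGC, the core letters of the NRF2 site, searched in the same way, was in 6 of the 39 (15.4%), of the genes Ulk2, Atg13, Vmp1 and Tax1bp1, and in 10.2% of all promoter windows. A match describes letters in a window and not binding.

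Grn checked the labels. It was measured at 323, 337 and 325 FPKM (fragments per kilobase of gene model, scaled to library size) in WT and by 1, 0 and 1 fragments in PGRN KO. Libraries held 15996786 to 17551619 fragments. PGRN KO replicate 6 stood apart from the others: its deviation from each gene's mean fell with gene length (Spearman -0.47 over 8882 genes), whereas the correlation was 0.15 to 0.24 in the other 5 libraries. Counts of called genes are therefore given with and without it. Macrophage markers were abundant, with summed levels of 11618 to 12561 FPKM over 8 markers in WT and 10445 to 14377 in PGRN KO, with 2 of 8 higher and 2 of 8 lower in every PGRN KO library. The 4 markers of resident peritoneal macrophages summed to 6.98 to 7.61 FPKM in WT and 9.27 to 10.1 in PGRN KO, with 1 of 4 (Icam2) higher in every PGRN KO library and 1 of 4 (Timd4) lower. Gata6 was at 3.78 to 5.07 FPKM and Timd4 at 0 to 0.204. The 5 B cell markers summed to 1.5 to 2.5 FPKM in WT and 6.62 to 8.92 in PGRN KO, with 5 of 5 higher in every PGRN KO library. The 5 mast cell markers summed to 1.47 to 2.25 and 6.39 to 8.84 FPKM, with 4 of 5 higher. The 8 mesothelial and fibroblast markers summed to 1.1 to 1.2 and 2.04 to 3.65 FPKM, with 4 of 8 higher and Lrrn4 at 0 throughout. The 5 T and NK cell markers summed to 2.08 to 2.87 FPKM in WT and 2.37 to 4.45 in PGRN KO, with 2 of 5 higher. The 7 neutrophil markers summed to 60.7 to 66.8 and 32.5 to 36.4 FPKM, mostly S100a8, with 2 of 7 lower. These 2, S100a8 and Csf3r, made up nearly all of the sum. S100a9, Camp, Ngp and Retnlg were at 0 to 0.443 FPKM over all libraries, and Ly6g was at 0. The 5 dendritic cell markers summed to 1.84 to 2.27 and 1.1 to 1.4 FPKM, with 2 of 5 lower and Cd209a at 0. The part of these cells in the results was not tested, and in bulk RNA fewer cells of a type and less RNA per cell cannot be told apart.

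Of the 38 autophagy genes, 7 were lower in PGRN KO and 0 were higher. The genes that fell were Atg2a and Atg12, followed by Atg2b, Rb1cc1, Map1lc3b, Wipi2 and Atg14, with mean levels 26.9% to 48.5% below WT. They act at 5 of the 6 steps, and 3 of them belong to lipid supply. Fold changes were fitted with limma on log2(FPKM + 1), which understates the change of genes of low level, over genes with a mean of at least 1 FPKM, and a gene was called at an adjusted p under 0.05. In all 36 of the 38 passed the filter, and Ulk2 and Atg10 did not. The 7 of 36 (19.4%) compared with 24.2% of all 8882 tested genes called in either direction, a share below that background. By direction, 19.4% were lower, above the 13.8% of all tested genes, and 0 were higher, below 10.4%. At an unadjusted p under 0.05 there were 12 of the 36, beside 39.1% of all tested genes. The median log2 fold change of the 36 was -0.15, beside -0.03 for all tested genes, with 15 above 0 and 21 below.

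**Figure D1:**
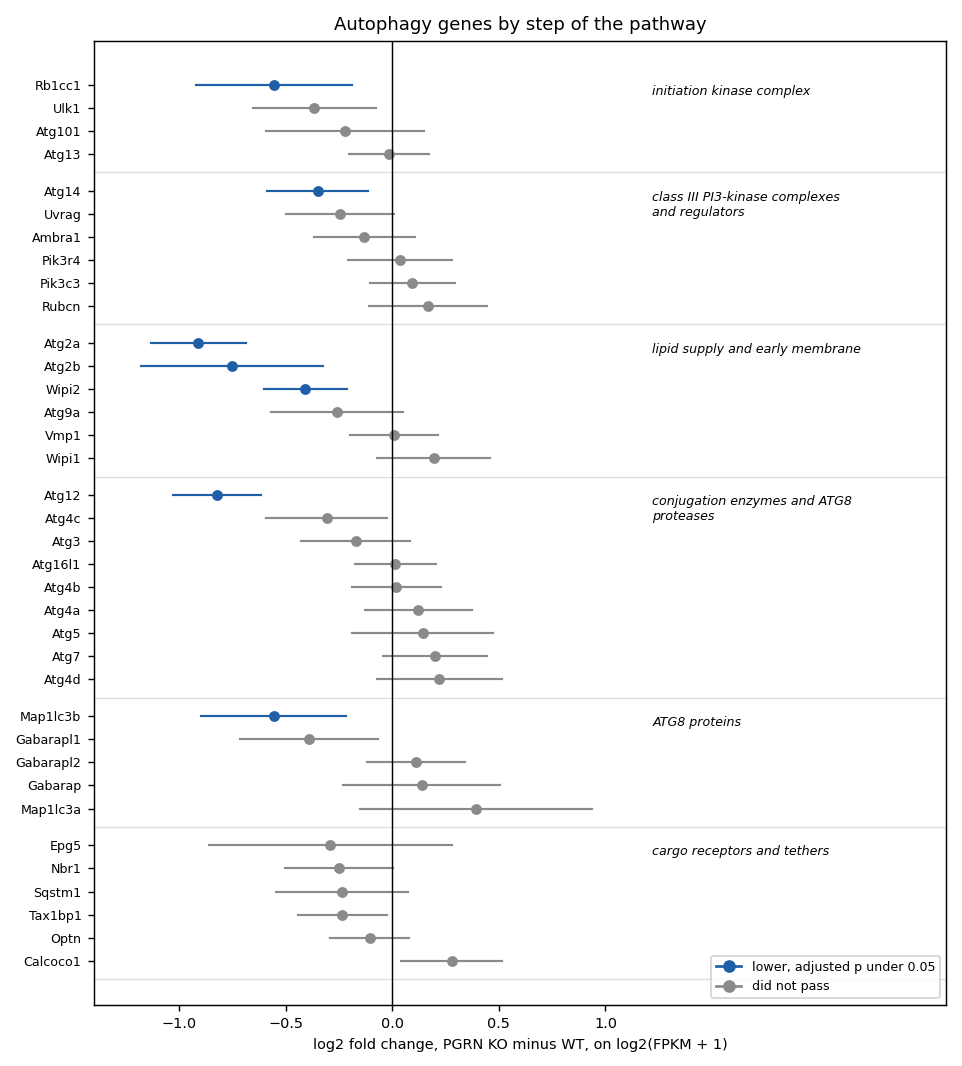
Log2 fold change (PGRN KO minus WT, on log2(FPKM + 1)) of each of the 36 tested autophagy genes, grouped by step. Points are estimates, lines 95% intervals, and the 7 blue genes were lower at an adjusted p under 0.05, while 0 were higher.

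The ranges of the libraries were compared as well. Of the 36 genes, 14 were lower in every PGRN KO library than in any WT library and 4 (Pik3c3, Atg4d, Atg7 and Calcoco1) were higher, together 18. Over all tested genes 27.6% separated in this way downwards, 21.2% upwards and 48.8% in either direction. The split of all calls depended on scaling: 42.8% of calls were higher on the deposited FPKM, 60.3% on a TPM scale, 62.9% with the sum of fragments as library size and 49.0% after quantile normalization. On these 3 scalings 3, 2 and 9 autophagy genes were called lower, beside 6.85%, 7.82% and 12.5% of all tested genes, and 0 higher.

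Without PGRN KO replicate 6, 13 autophagy genes were lower and 1, Wipi1, was higher. The 13 comprised the 7 and Ulk1, Atg101, Atg3, Gabarapl1, Sqstm1 and Tax1bp1. The background rose in parallel, to 41.3% of all tested genes, with 25.1% lower and 16.2% higher. With a correction of each library for gene length, 8 were lower (Ulk1, Atg101, Rb1cc1, Atg14, Atg2a, Atg2b, Atg12 and Gabarapl1) and 1, Calcoco1, was higher, and the background was 31.7%, with 16.8% lower and 14.9% higher. Wipi2 (log2 fold change -0.24, adjusted p = 0.213) and Map1lc3b (-0.45, adjusted p = 0.109) were then no longer called, with all-library changes of -0.41 and -0.56. With the same correction but without replicate 6, Wipi2 was called lower (-0.39, adjusted p = 0.00388). The gene models of the 7 called genes had a median of 7693 bases, from 2492 in Atg12 to 14690 in Rb1cc1, against a median of 4466 in the other 29. Among the 12 longest of the 36 genes (7478 to 14690 bases), the median log2 difference from the WT mean was -0.20 and -0.18 in PGRN KO replicates 4 and 5 and -0.30 in replicate 6. Among the 12 shortest (1181 to 3753 bases) it was -0.17, -0.19 and 0.05. These medians do not hold for each gene, since replicate 6 had the highest PGRN KO value of the long genes Wipi2, Atg16l1, Atg4b and Map1lc3b.

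**Figure D2:**
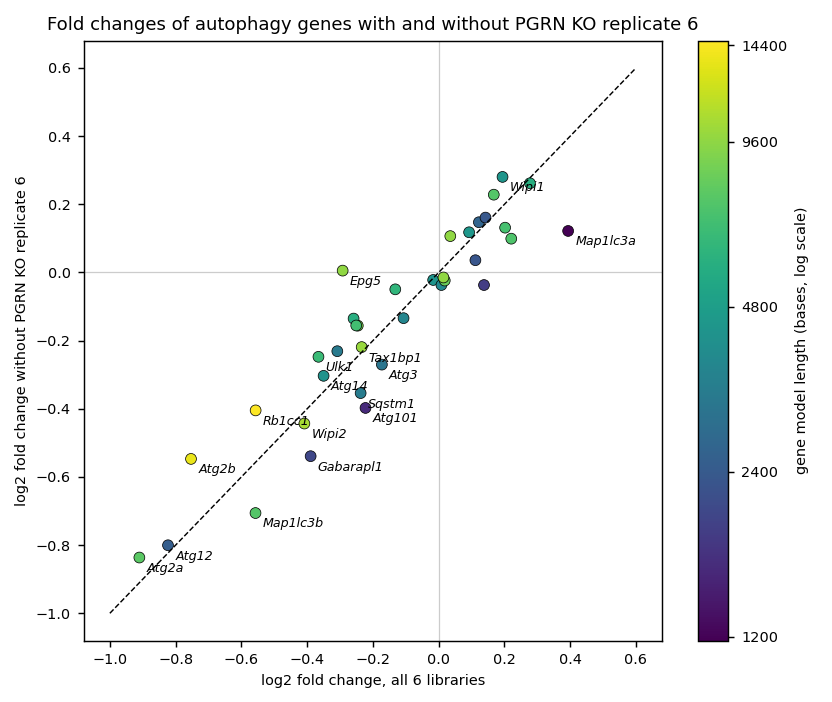
Log2 fold change of each tested autophagy gene with all 6 libraries (x axis) and without PGRN KO replicate 6 (y axis), both on log2(FPKM + 1), coloured by gene model length on a log scale. Points on the dashed line did not move, the long genes Atg2b and Rb1cc1 lie above it, closer to 0, and the shorter Atg101, Sqstm1 and Gabarapl1 lie below it.

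Of the 6 genes of lipid supply to the early membrane 3 were lower, beside 13.8% of all tested genes, with a median log2 fold change of -0.33. Without replicate 6, 3 were lower and 1 higher, beside 25.1% and 16.2% of all tested genes. With the gene length correction 2 were lower, beside 16.8%. Atg2a (ENSMUSG00000024773, chromosome 19, 6241668 to 6262335, GRCm38), which encodes a bridge-like protein that moves lipid from the endoplasmic reticulum into the growing membrane, was at 25.8, 25.1 and 25.3 FPKM in WT and 14.2, 13.4 and 11.7 in PGRN KO. The groups lay far apart and the WT values within a narrow range. The difference on the log2 scale was -0.91 ± 0.09 (SE, n = 3 per group, adjusted p = 0.00198), and Atg2a remained called in all 19 alternative settings (largest adjusted p 0.0198). Its paralogue Atg2b (chromosome 12, 105616136 to 105685211), which shares this activity, was at 6.17, 5.24 and 5.78 FPKM in WT and 3.47, 3.73 and 2.00 in PGRN KO. Atg2b changed by -0.75 ± 0.18 on the log2 scale (adjusted p = 0.0258), and the lowest value was that of replicate 6. Without replicate 6 the change of Atg2b was -0.55 (adjusted p = 0.0039), whereas leaving out WT replicate 1, 2 or 3 ended the call, with adjusted p-values of 0.0992, 0.0732 and 0.0841.

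Wipi2 (chromosome 5, 142627698 to 142670588), which reads PI3P and recruits ATG16L1, was at 11.0, 10.7 and 10.8 FPKM in WT and 7.45, 7.98 and 8.36 in PGRN KO. All PGRN KO libraries lay below all WT libraries, and the log2 fold change was -0.41 ± 0.08 (adjusted p = 0.0148). The call was lost without PGRN KO replicate 4 (adjusted p = 0.0501) and without WT replicate 1, 2 or 3 (0.0819, 0.0666 and 0.0654). Its relative Wipi1 averaged 4.65 ± 0.42 FPKM (SD, n = 3) in WT and 5.47 ± 0.65 in PGRN KO, with a log2 fold change of 0.19 ± 0.11 (adjusted p = 0.239). Wipi1 was called higher in 3 of 19 alternative settings, without replicate 6 at 0.28 (adjusted p = 0.0361). The difference between the changes of the WIPI genes was not tested.

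Vmp1, a lipid scramblase of the endoplasmic reticulum with the highest mean of this group over the 6 libraries, was at 25.0, 27.3 and 26.1 FPKM in WT and 25.2, 25.7 and 28.0 in PGRN KO. The libraries of the genotypes were intermingled, and the 95% interval of the log2 fold change was -0.20 to 0.21, which does not reach the change of Atg2a. Atg9a, the scramblase of ATG9 vesicles, was at 3.07 to 3.57 FPKM in WT and 2.04 to 3.11 in PGRN KO (log2 fold change -0.26 ± 0.13, adjusted p = 0.187), and 31.8% of its exonic bases also belong to the same-strand gene Gm29253, so its count may be incomplete.

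**Figure D3:**
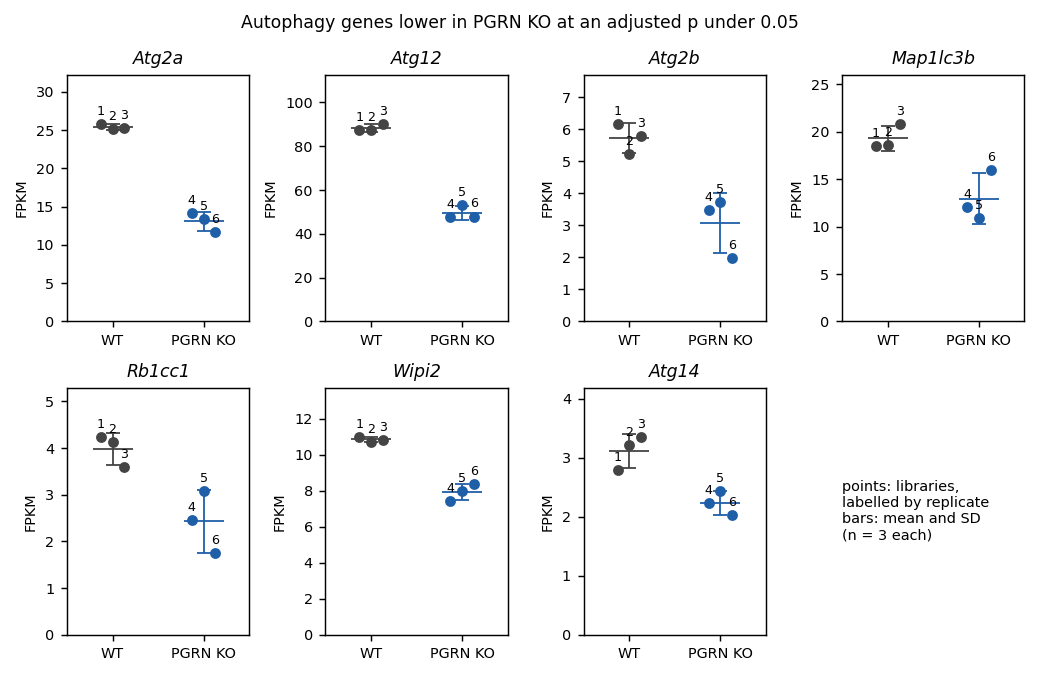
FPKM of the 7 autophagy genes called lower in PGRN KO, with 1 point per library labelled by replicate and bars for the mean and SD (n = 3 each), on axes from 0. In each panel all WT points lie above all PGRN KO points, and replicate 6 is the lowest PGRN KO point for Atg2a, Atg2b, Rb1cc1 and Atg14 and the highest for Wipi2 and Map1lc3b.

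In the initiation kinase complex 1 of 4 tested genes was lower, and 3 of 4 were without replicate 6 and with the gene length correction. Of all tested genes 13.8%, 25.1% and 16.8% were lower in these settings. Rb1cc1 (chromosome 1, 6206197 to 6276648), which encodes FIP200, the scaffold of the complex, was at 4.23, 4.13 and 3.59 FPKM in WT and 2.46, 3.09 and 1.74 in PGRN KO. All 3 PGRN KO values were below the lowest WT value. Rb1cc1 fell, with a log2 fold change of -0.56 ± 0.16 (adjusted p = 0.0413) and -0.40 without replicate 6 (adjusted p = 0.0240), but the call was lost without PGRN KO replicate 4 (adjusted p = 0.0835) or without WT replicate 1, 2 or 3 (0.139, 0.132 and 0.0859). Other genes, chiefly Gm13961, share 12.8% of its 31-base words, so its level is uncertain. Ulk1, the kinase that starts the pathway, was at 4.31 to 4.70 FPKM in WT and 2.67 to 3.72 in PGRN KO, and the log2 fold change was -0.37 ± 0.12 (adjusted p = 0.0684). The groups of Ulk1 did not overlap, and without replicate 6 it was called at -0.25 (adjusted p = 0.0280).

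Atg101, a partner of ATG13, had the highest mean of the complex over the 6 libraries, although Atg13 was above it in PGRN KO replicates 4 and 5. Atg101 measured 19.4, 21.7 and 21.4 FPKM in WT and 15.2, 15.9 and 22.8 in PGRN KO. Replicates 4 and 5 lay below every WT library and replicate 6 above every one. The log2 fold change of Atg101 was -0.22 ± 0.16 with all libraries (adjusted p = 0.331) and -0.40 without replicate 6 (adjusted p = 0.0060). Atg13, the adaptor that senses the nutrient kinase mTORC1, was at 17.9 to 18.9 FPKM in WT and 17.5 to 18.8 in PGRN KO (log2 fold change -0.02, 95% interval -0.20 to 0.17). Ulk2, the second kinase, was at 0.278 to 0.440 and 0.310 to 0.619 FPKM and was not tested, so Ulk1 was the more abundant ULK kinase in all 6 libraries.

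Of the 6 genes around the class III PI3-kinase, 1 was lower, with and without replicate 6, beside 13.8% and 25.1% of all tested genes. Atg14 (chromosome 14, 47540893 to 47570649), which directs VPS34 to the site of autophagosome formation, was at 2.79, 3.21 and 3.35 FPKM in WT and 2.23, 2.43 and 2.02 in PGRN KO. Its log2 fold change was -0.35 ± 0.10 (adjusted p = 0.0445). Atg14 had 151 to 261 fragments per library and was nearest to the threshold. Without replicate 6 its adjusted p was 0.0359, and without PGRN KO replicates 4 or 5 or WT replicates 1, 2 or 3 it was 0.0960, 0.0623, 0.0904, 0.147 and 0.150. The kinase Pik3c3 (VPS34) averaged 2.24 ± 0.07 FPKM in WT and 2.45 ± 0.11 in PGRN KO, with a log2 fold change of 0.09 ± 0.08 (adjusted p = 0.450), and its regulatory subunit Pik3r4 (VPS15) averaged 1.85 ± 0.14 and 1.93 ± 0.24 FPKM (log2 fold change 0.04, adjusted p = 0.824).

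Ambra1, which binds Beclin 1 and stabilises ULK1, was the most abundant gene of this group, at 7.97, 7.94 and 7.98 FPKM in WT and 7.94, 7.39 and 6.29 in PGRN KO. Ambra1 had a log2 fold change of -0.13 ± 0.10 (adjusted p = 0.365), and -0.05 without replicate 6. Uvrag, which replaces ATG14 in the endosomal form of the complex, was at 4.63 to 4.85 FPKM in WT and 3.29 to 4.41 in PGRN KO (log2 fold change -0.25 ± 0.11, adjusted p = 0.139), and 17.6% of its exonic bases lie opposite Gm45187. Rubcn (Rubicon), which inhibits autophagosome maturation and is needed for LC3-associated phagocytosis, was at 1.27 to 1.79 FPKM in WT and 1.56 to 2.00 in PGRN KO (log2 fold change 0.17 ± 0.12, adjusted p = 0.330).

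Of the 9 tested conjugation enzymes and proteases, 1 was lower, the most abundant one, and 2 were without replicate 6. Of all tested genes 13.8% and 25.1% were lower in these settings. Atg12 (ENSMUSG00000032905, chromosome 18, 46732417 to 46741579) encodes the ubiquitin-like protein that is joined to ATG5. It was at 87.4, 87.5 and 90.2 FPKM in WT and 47.5, 53.2 and 47.9 in PGRN KO, with 3224 to 4056 and 2051 to 2511 fragments. The mean fell by 43.9%, the replicates of each genotype lay close together, and replicate 6 did not stand apart. The log2 fold change was -0.82 ± 0.09 (adjusted p = 0.00202), and Atg12 was called in all 19 alternative settings (largest adjusted p 0.0218). Atg2a and Atg12 were the only autophagy genes called in every setting.

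ATG12 works as a complex with ATG5 and ATG16L1, and the transcripts of these partners were not called. Atg5 was at 8.0 to 9.0 FPKM in WT and 7.86 to 11.6 in PGRN KO (log2 fold change 0.14 ± 0.14, adjusted p = 0.484). Atg16l1 was at 3.94 to 4.02 and 3.91 to 4.23 FPKM, with a 95% interval of the log2 fold change of -0.18 to 0.21. Atg12 made up 87.7% ± 0.6 (SD, n = 3) of the summed FPKM of these 3 genes in WT and 78.6% ± 1.4 in PGRN KO, and was the most abundant of them in every library. These shares rest on the deposited Atg12 length of 2492 bases, while its longest annotated transcript has 4765 bases, so their size is uncertain. Atg7, the activating enzyme for both conjugation systems, was at 5.72 to 6.00 FPKM in WT and 6.00 to 7.68 in PGRN KO (log2 fold change 0.20 ± 0.10, adjusted p = 0.191). Atg3, the enzyme that passes ATG8 proteins to lipid, was at 15.6 to 16.1 FPKM in WT. In PGRN KO it was at 12.5, 13.4 and 16.1, and it was called lower in 3 of 19 alternative settings (log2 fold change -0.17 with all libraries, adjusted p = 0.274, and -0.27 without replicate 6, adjusted p = 0.0116). Atg10, which joins ATG12 to ATG5, was at 0.383 to 0.669 FPKM in WT and 0.739 to 1.11 in PGRN KO, with 11 to 33 fragments per library, and was not tested.

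None of the 4 ATG4 proteases, which prime ATG8 proteins and release them from lipid, was called. Atg4c averaged 5.52 ± 0.74 FPKM in WT and 4.26 ± 0.48 in PGRN KO (log2 fold change -0.31 ± 0.12, adjusted p = 0.105), Atg4d 3.44 ± 0.10 and 4.21 ± 0.80 (0.22 ± 0.12, adjusted p = 0.227). Atg4b averaged 3.71 and 3.77 FPKM (log2 fold change 0.02) and Atg4a 2.34 and 2.63 (0.12), and neither 95% interval reached beyond 0.37 from 0. Atg4a shares 60.8% of its 31-base words with the pseudogene Atg4a-ps, and 19.3% of the exonic bases of Atg4d lie opposite Kri1 (2.06 FPKM), so both are uncertain. The summed FPKM of the 4 proteases was 15.0 ± 1.1 in WT and 14.9 ± 0.5 in PGRN KO.

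The ATG8 proteins are the coats of the membrane to which receptors bind. Of the 5 transcripts 1 was lower, or 2 without replicate 6, beside 13.8% and 25.1% of all tested genes. Map1lc3b (ENSMUSG00000031812, chromosome 8, 121590361 to 121598760), which encodes LC3B, was at 18.5, 18.6 and 20.8 FPKM in WT and 12.0, 10.9 and 15.9 in PGRN KO. The groups did not overlap, and replicate 6 was the nearest to WT. Its log2 fold change was -0.56 ± 0.14 (adjusted p = 0.0328) and -0.71 without replicate 6 (adjusted p = 0.0015). Leaving out any other library ended the call, with adjusted p-values of 0.0855 and 0.0767 without PGRN KO replicates 4 and 5 and of 0.0989, 0.0956 and 0.114 without WT replicates 1, 2 and 3. Of the 31-base words of Map1lc3b, 8.64% occur in other genes, chiefly Gm6055.

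Gabarapl1 was at 80.7, 83.1 and 83.5 FPKM in WT and 56.9, 56.0 and 77.4 in PGRN KO, with a log2 fold change of -0.39 ± 0.14 (adjusted p = 0.0810). All PGRN KO values lay below WT, and without replicate 6 Gabarapl1 was called at -0.54 (adjusted p = 0.00088). Of its exonic bases, 28.3% lie opposite 1700101I11Rik, a gene measured at 0.572 FPKM. Gabarap was the most abundant ATG8 transcript, at 228, 232 and 224 FPKM in WT and 220, 224 and 320.0 in PGRN KO. Replicates 4 and 5 were at the WT level and replicate 6 was above it, and the log2 fold change was 0.14 ± 0.16 (adjusted p = 0.546), and -0.04 without replicate 6. Gabarapl2 averaged 14.4 ± 0.6 and 15.7 ± 1.6 FPKM (adjusted p = 0.429) and shares 15.3% of its 31-base words with other genes. Map1lc3a, which encodes LC3A, was at 11.3 to 13.2 FPKM in WT and at 12.4, 14.9 and 24.7 in PGRN KO (log2 fold change 0.39 ± 0.23, adjusted p = 0.247), with the highest value in replicate 6.

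The make-up of the ATG8 pool, as each transcript's share of the summed FPKM of the 5 genes in a library, does not depend on scaling between libraries. Gabarap made up 63.0% to 64.6% of the pool in WT and 69.6% to 70.2% in PGRN KO, and replicate 6 lay beside the other libraries of its genotype on this measure. Gabarapl1 took 22.9%, 23.0% and 23.5% in WT and 18.0%, 17.4% and 17.0% in PGRN KO. Map1lc3b took 5.41% ± 0.39 and 3.56% ± 0.21, and Map1lc3a 3.49% ± 0.27 and 4.67% ± 0.75 (SD, n = 3 each). These 4 shares did not overlap between genotypes, while by level 48.8% of all tested genes separated in either direction. Each of the 4 gives p = 0.1 in an exact two-sided permutation test (0.125 adjusted over 5 shares). This p of 0.1 is the smallest that 3 against 3 allows, so no share can pass the threshold. The 5 shares add up to the whole pool in each library, so they are not separate observations. A share can rise where the level of its own transcript does not. The share of Gabarapl2 overlapped (4.04% ± 0.14 and 4.38% ± 0.47, exact permutation p = 0.4). The summed level was 357 ± 4 FPKM in WT and 364 ± 79 in PGRN KO.

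**Figure D4:**
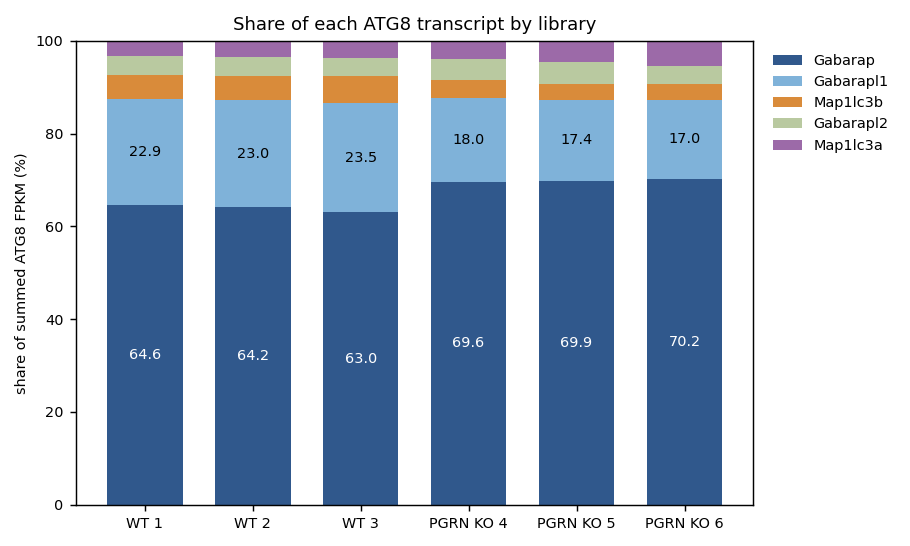
Share (%) of each of the 5 ATG8 transcripts in their summed FPKM, 1 bar per library, with the shares of Gabarap and Gabarapl1 printed. Gabarap takes 63.0% to 64.6% in the WT libraries and 69.6% to 70.2% in the PGRN KO libraries, and Gabarapl1 the reverse, 22.9% to 23.5% and 17.0% to 18.0%.

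Cargo receptors and tethers held 0 called genes of 6 with all libraries by limma, with 2 of 6 (Calcoco1 and Tax1bp1) at an unadjusted p under 0.05, which 39.1% of all tested genes reached. Without replicate 6, 2 of the 6 (Sqstm1 and Tax1bp1) were lower, beside 25.1% of all tested genes. Sqstm1, which encodes the ubiquitin-binding receptor p62 and was the most abundant of all 38 transcripts, was at 1017, 1077 and 997 FPKM in WT and 819, 792 and 1027 in PGRN KO. Replicates 4 and 5 were below every WT library, and replicate 6 lay within the WT range. Sqstm1 had a log2 fold change of -0.24 ± 0.13 (adjusted p = 0.220) with all libraries and -0.35 (adjusted p = 0.0057) without replicate 6. Sqstm1 made up 93.9% of the summed FPKM of the 5 receptors in WT and 93.7% in PGRN KO. Of its exonic bases 17.3% lie opposite Mrnip, at 0.0688 FPKM.

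Tax1bp1, a receptor that also restrains NF-kB signalling, averaged 34.1 ± 2.2 FPKM in WT and 28.8 ± 1.1 in PGRN KO (log2 fold change -0.23 ± 0.09, adjusted p = 0.0955), and without replicate 6 its adjusted p was 0.0485. Nbr1, which co-assembles with p62, averaged 12.1 ± 0.4 and 10.1 ± 1.3 FPKM (log2 fold change -0.25 ± 0.11, adjusted p = 0.132). Optn (optineurin), which binds ubiquitin-coated bacteria and mitochondria, averaged 19.0 ± 0.2 and 17.6 ± 0.7 FPKM, with a 95% interval of the log2 fold change of -0.29 to 0.08. Calcoco1, a receptor for the endoplasmic reticulum, was at 0.970 to 1.34 FPKM in WT and 1.58 to 1.68 in PGRN KO, from 93 to 171 fragments per library (log2 fold change 0.28 ± 0.10, adjusted p = 0.0887). Calcoco1 was the gene of this group that was higher in every PGRN KO library. Epg5, a tether between autophagosomes and lysosomes, was at 4.02 to 4.57 FPKM in WT and 4.26, 4.54 and 1.91 in PGRN KO, so its log2 fold change of -0.29 ± 0.24 (adjusted p = 0.404) rested on replicate 6 and was 0.01 without it.

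Levels spanned a wide range, and FPKM allows them to be ordered per length of gene model. In WT the order from the top was Sqstm1 (mean 1030 FPKM), Gabarap (228), Atg12 (88.3), Gabarapl1 (82.5), Tax1bp1 (34.1), Vmp1 (26.1), Atg2a (25.4) and Atg101 (20.8). Atg12 lay above Gabarapl1 in every WT library and below it in every PGRN KO library (49.6 and 63.4 FPKM on average). Vmp1 and Atg2a did not differ beyond their spread in WT, while in PGRN KO Vmp1 was at 25.2 to 28.0 FPKM and Atg2a at 11.7 to 14.2. Gene models, not single transcripts, were used for length, so a level per model is not a level per transcript. The deposited model of Atg12 has 2492 bases, fewer than its longest transcript in the GENCODE M21 annotation (4765 bases). The level of Atg12 and its place in this order, also beside Gabarapl1, are therefore uncertain.

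Of 57 further genes of the pathway that were not among the 38, in 4 lists, 50 were tested, 13 were lower and 1 was higher, with a median log2 fold change of -0.13. The 28.0% called compared with 24.2% of all tested genes, with 26% lower beside 13.8% and 2% higher beside 10.4%. This depended on scaling. On the TPM scale 3 of the 50 were lower, beside 6.85% of all tested genes, a share not above the background. With the sum of fragments 7 were lower, beside 7.82%, and after quantile normalization 14, beside 12.5%. Leaving out WT replicate 1, 2 or 3 left 2, 4 and 4 lower and 0 higher. Of all 8882 tested genes 382, 443 and 486 were then lower and 331, 412 and 397 higher. Without replicate 6 there were 21 lower and 5 higher, beside 25.1% and 16.2% of all tested genes. With the gene length correction there were 15 and 5, beside 16.8% and 14.9%. Fusion of autophagosomes with lysosomes held 6 of the 13 lower genes, out of 13 tested, beside 13.8% lower of all tested genes. Without replicate 6, 7 were lower and 1, Lamp1, was higher (log2 fold change 0.24, adjusted p = 0.0197), beside 25.1% and 16.2%. The 6 were Snap29, a fusion SNARE, Vps11, Vps18 and Vps33a, core subunits of the HOPS tether, Plekhm1, an adaptor of the late endosome, and the GTPase Rab7. Rab7 shares 18.4% of its 31-base words with other genes. Vps18 was at 24.2, 23.8 and 24.9 FPKM in WT and 15.3, 15.4 and 15.3 in PGRN KO (log2 fold change -0.63 ± 0.08, adjusted p = 0.00305), and Vps33a at 9.80, 10.1 and 10.2 and 7.50, 7.08 and 5.89 (-0.50 ± 0.10, adjusted p = 0.0158). The groups of both were separate, and Vps18 was called in all 19 alternative settings, Vps33a in 14. Vps16, Vps39 and Vps41, the other HOPS subunits, had log2 fold changes above 0 and were not called with all libraries. With the gene length correction 7 genes of this list were lower and 2 higher, beside 16.8% and 14.9% of all tested genes. The 2 were Vps39 (log2 fold change 0.25, adjusted p = 0.0385) and Vps41 (0.27, adjusted p = 0.0494).

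Among the kinases and transcription factors above the pathway, 2 of 15 were lower and 1 higher, beside 13.8% and 10.4% of all tested genes. Without replicate 6, 6 were lower and 3 higher, beside 25.1% and 16.2%. Prkaa1, the catalytic subunit of the energy sensor AMPK, was at 5.14, 5.03 and 5.45 FPKM in WT and 3.66, 3.67 and 2.93 in PGRN KO (log2 fold change -0.49 ± 0.10, adjusted p = 0.0159). Foxo3, a forkhead factor that drives autophagy genes, was at 8.39, 8.62 and 7.83 and 6.09, 6.45 and 4.42 FPKM (-0.49 ± 0.13, adjusted p = 0.0390). In both, the lowest value was that of replicate 6, and without it the adjusted p was 0.00448 and 0.00836. Trp53inp1, a stress-induced LC3-binding protein, was higher at a low level (0.700 to 0.960 FPKM in WT, 1.17 to 1.56 in PGRN KO, adjusted p = 0.0350). Tfeb, at 0.391 to 0.727 FPKM over all libraries, Mlst8, Deptor and Prkaa2 were below the filter and not tested.

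Receptors for mitochondria, reticulum, ferritin and glycogen held 3 lower genes of 10, and 6 of 10 without replicate 6. Of all tested genes 13.8% and 25.1% were lower in these settings. Tollip, an endosomal adaptor that binds ubiquitin and LC3, was at 85.8, 86.5 and 83.7 FPKM in WT and 53.3, 54.0 and 47.9 in PGRN KO (log2 fold change -0.71 ± 0.09, adjusted p = 0.00324) and was called in all 19 alternative settings. Ncoa4, the receptor that delivers ferritin to lysosomes, was at 7.13, 7.31 and 7.15 and 4.53, 5.03 and 3.10 FPKM (-0.67 ± 0.15, adjusted p = 0.0203), and shares 18.8% of its 31-base words with other genes. The WT values of both lay close together and above all PGRN KO values. Retreg1, a receptor for the endoplasmic reticulum, was the remaining one. Stbd1 was under the filter, and Ccpg1, which shares exonic bases with a same-strand gene, is listed at 0 in every library.

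Of the 12 membrane and lipid partners 2 were lower, beside 13.8% of all tested genes. Without replicate 6, 2 were lower and 1 higher, beside 25.1% and 16.2%. Tmem41b, which works with VMP1, was at 8.81, 8.87 and 9.31 FPKM in WT and 6.46, 7.31 and 5.66 in PGRN KO (log2 fold change -0.42 ± 0.10, adjusted p = 0.0284), and Wdr45b, a relative of the WIPI proteins, also fell. The scaffold Wdfy3 had the largest change of the list, -0.57 ± 0.31, without passing (adjusted p = 0.220). It was at 9.03, 8.31 and 8.52 FPKM in WT and 7.32, 7.78 and 2.70 in PGRN KO, the last in replicate 6. Tmem41b, Wdr45b, Prkaa1, Foxo3, Vps33a, Ncoa4, Retreg1, Snap29, Vps11, Plekhm1, Rab7 and Trp53inp1 each lost the call in at least 2 of their alternative settings.

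**Figure D5:**
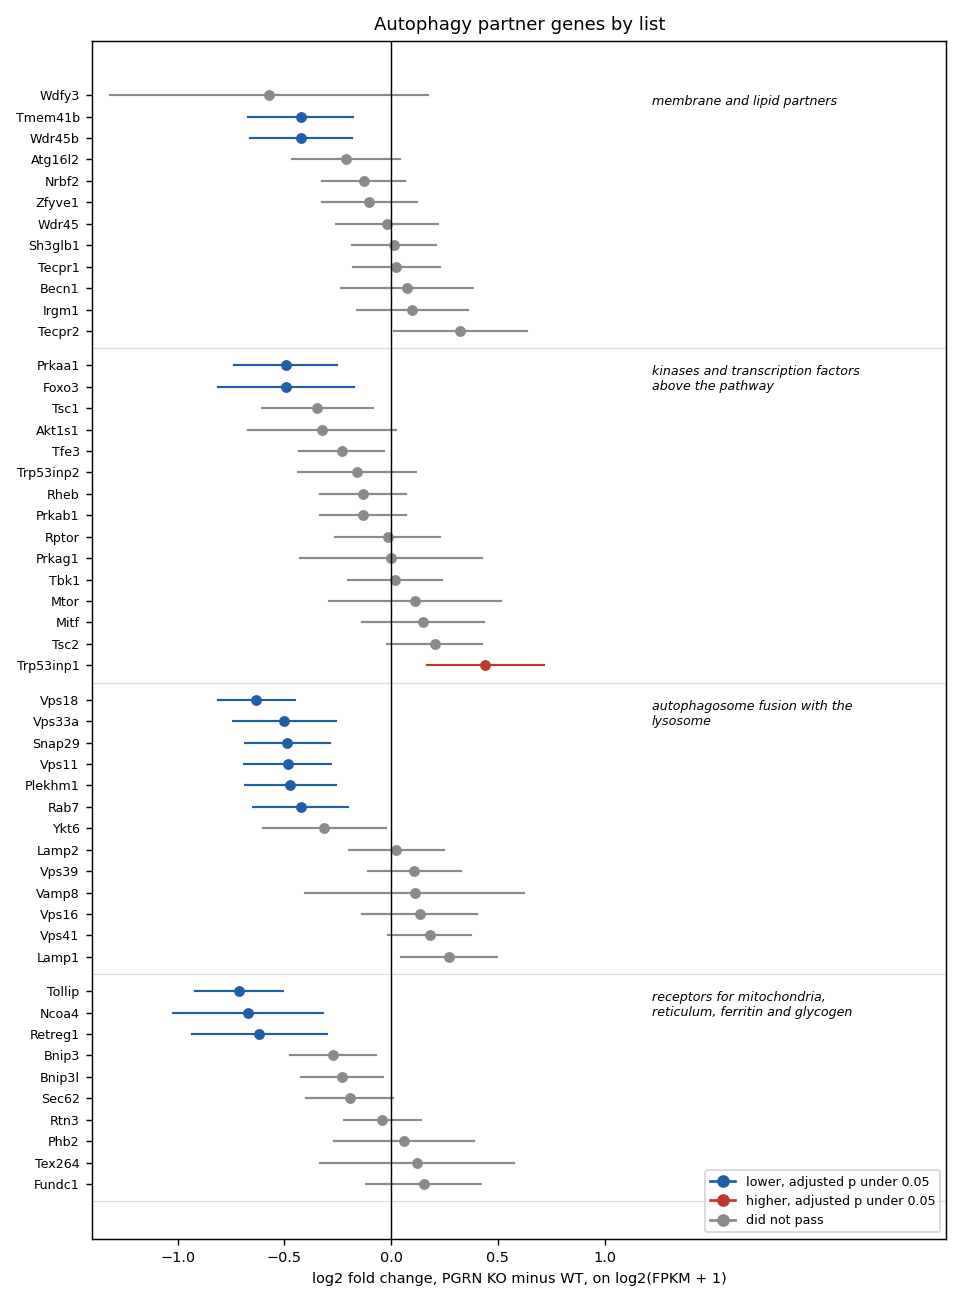
Log2 fold change (PGRN KO minus WT, on log2(FPKM + 1)) of the 50 tested partner genes in 4 lists, with 95% intervals. The 13 blue genes were lower and the 1 red gene, Trp53inp1, higher at an adjusted p under 0.05, and 6 of the blue genes are in the list of fusion with the lysosome.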

How the data were processed

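Poly(A) RNA was sequenced from 3 WT and 3 PGRN KO libraries. The authors deposited FPKM per gene. The submitters' processing notes name CASAVA, HISAT2 2.0.5, featureCounts 1.5.0-p3 and DESeq2 1.20.0 on GRCm38 (mm10), while the study's methods name HISAT and HTSeq, so the counter is not settled, and nothing read here states if reads were counted by strand. FPKM times gene length were whole fragments (tolerance 0.001) for 100% of values. The library size the authors divided by was 0.925 to 1.09 times the fragment sum, so the values were already scaled between libraries. These totals give each library's depth.

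Here log2(FPKM + 1) was fitted with limma 3.58.1 in R 4.3.3 (mean-variance trend, no covariates, two-sided) over the 8882 genes that averaged 1 FPKM or more, with Benjamini-Hochberg adjustment over all of them (threshold 0.05). The step was tested on simulated data. No count model was fitted, since the deposited unit is FPKM, except limma voom on the recovered fragments as an alternative. Overlaps and 31-base words were computed from GENCODE M21 on GRCm38. The 38 genes, the partner and marker lists and the tests were chosen with earlier results of these data known. By the naming rule each of the 38 genes was named, called genes and the most abundant gene of each step were given per library, and the 2 largest changes of each partner list were given. Sequences came from RefSeq, and protein sequences were not used here. Alternatives were 2 pseudocounts, 2 filters, 3 scalings, no trend, quality weights, voom, a loess correction for gene length (span 0.5) with and without PGRN KO replicate 6, protein-coding genes only, and each library left out.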

Additional observations from a re-analysis of the deposited data

How the results depend on the processing

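Over 19 alternative settings, the 36 tested autophagy genes gave 603 results that kept their side of the threshold, 37 that lost the call and 28 that gained it. No called gene changed sign, and 7 uncalled genes did (Atg13, Pik3r4, Vmp1, Atg4b, Atg16l1, Gabarap and Epg5), none with an adjusted p under 0.05. Genes called lower numbered 7 with all libraries, 3 without a filter, 4 at a mean FPKM of at least 5, 3 on a TPM scale, 2 with the sum of fragments as library size, 14 with sample quality weights and 11 with the gene length correction without PGRN KO replicate 6. The background moved as well. Of all 8882 tested genes 1230 were lower with all libraries, 608 on the TPM scale and 695 with the sum of fragments. Quality weights gave 2468 of 8882 lower, and the length correction without replicate 6 gave 2024. The filters change which genes are tested, and 763 of 22912 were lower without a filter and 953 of 4855 at a mean of at least 5. Genes called higher numbered 0, but 2 with quality weights and 1 with the length correction, with or without that library. Of the 8882 tested genes, 921 were higher with all libraries and 1757 with quality weights. The length correction gave 1321 higher with that library and 1640 without it. The median log2 fold change of -0.152 became -0.102 on the TPM scale, -0.0613 with the sum of fragments, -0.106 after quantile normalization, -0.0861 with quality weights, -0.0868 with the length correction and -0.0631 with that correction without PGRN KO replicate 6. The cause of these shifts was not tested. Quality weights gave PGRN KO replicate 6 a weight of 0.0899 and the other libraries 1.07 to 3.79.

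Leaving out 1 library at a time gave 2 to 13 autophagy genes lower, 0 to 1 higher and a median of -0.157 to -0.0918. Each WT library left out left 2 (Atg2a and Atg12), and PGRN KO replicate 6 left out gave 13. Of all 8882 tested genes 382, 443 and 486 were lower without WT replicates 1, 2 and 3. Without PGRN KO replicate 6 there were 2230. With fewer libraries tests lose power, but without replicate 6 calls rose. For the partner genes the same ranges were 2 to 21 lower and 0 to 5 higher, and for all tested genes 713 to 3668 called. Partner genes called lower were 8 without a filter, 3 on the TPM scale, 7 with the sum of fragments and 21 with quality weights, against 13. In the same order, 763 of 22912, 608 of 8882, 695 of 8882 and 2468 of 8882 tested genes were lower, against 1230 of 8882. Partner genes called higher were 0 without a filter, 0 at a mean FPKM of at least 5, 2 with the sum of fragments, 2 after quantile normalization, 8 with quality weights, 5 with the length correction and 7 with that correction without replicate 6, against 1. In the same order, 603 (of 22912), 529 (of 4855), 1179, 1069, 1757, 1321 and 1640 tested genes were higher, against 921 (of 8882). All tested genes called were 1366 without a filter, 4225 with quality weights and 3664 with the length correction without replicate 6, against 2151. No paired analysis was made, since nothing read here states a pairing of WT and PGRN KO libraries. Depth limits Ulk2, Atg10, Atg4a and Calcoco1 most, with 11 to 171 fragments per library, and other genes of low level to a lesser degree. Effects smaller than the intervals given were not detectable with 3 libraries per genotype.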
